A study of Mus musculus with 17 samples.

Results

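The genes described here were every gene whose symbol is that of an integrin subunit, a laminin chain or a nidogen, 39 of the 43629 genes in the deposited count table. They comprised 3 laminin-binding, 4 collagen-binding, 4 RGD-binding, 2 alpha4/alpha9 and 5 leukocyte integrin alpha subunits, 8 integrin beta subunits, 5 laminin alpha, 3 laminin beta and 3 laminin gamma chains, and 2 nidogens. The rule that picks them uses symbols alone, and all 39 members passed the filter on low counts.

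Integrins are receptors of the cell surface built from 1 alpha and 1 beta subunit, and the alpha subunit largely sets which ligand is bound. Laminins are trimers of an alpha, a beta and a gamma chain that form a network in basement membranes, and nidogens link that network to type IV collagen. In ovarian cancer, detached cells in ascites fluid attach to the mesothelial lining of the peritoneal organs through integrins and matrix proteins.

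The 17 RNA libraries fell into 8 groups around ID8, a cancer line derived from the surface epithelium of the mouse ovary. The 14 libraries from animals injected with ID8 cells were compared with each other, with the cultured line and with healthy tissue. Library preparation kept the strand and started from total RNA isolated with Trizol. The groups were tumours on the intestine, which the labels describe as metastases of the primary tumour (n = 3), ascites of the second tap (n = 3), ascites of the first tap (n = 3), subcutaneous tumours (n = 2), orthotopic tumours grown from cells placed inside the bursa of the right ovary (n = 3), healthy C57BL6 intestine (n = 1), healthy C57BL6 ovary (n = 1) and the untreated ID8 line in culture (n = 1). A tap is a withdrawal of ascites fluid with a syringe and needle, and the labels call it liquid tumour with cells, so host cells of the fluid were part of those samples. For the subcutaneous tumours the protocol names the flanks and the sample labels the scruff. The hosts' strain and age, the day of each tap and which samples came from the same animal are not given in the sources used here, so the p-values measure only the spread between these samples. No genetic change or drug treatment is named for any group.

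Total counts ran from 12031221 to 38902048 per library, and the members held 0.218% to 0.768% of them. Levels are given as CPM, a gene's count relative to the library's total after TMM scaling, with 1 value per library, in the order of the labels' replicate numbers (2 and 3 for the subcutaneous tumours). The 2 subcutaneous libraries stood furthest apart from each other of any replicates (Pearson r of log CPM across genes 0.867, against 0.902 to 0.982 in the other groups). Subcutaneous tumour 2 held 1725 CPM of summed B cell markers and 4389 CPM of adipocyte markers, against 10.8 and 21.1 CPM in subcutaneous tumour 3. Subcutaneous tumour 3, first tap 3 and second tap 1 had a count in 32775 to 33393 genes, against 21157 to 26838 genes in the other 14 libraries. The tissue labels were checked against markers. Intestinal epithelial markers summed to 5837 to 17210 CPM in tumours on the intestine and 14590 CPM in healthy intestine, against 6.05 to 8.68 CPM in orthotopic tumours, and granulosa and steroidogenic markers summed to 3209 CPM in healthy ovary. All comparisons are of bulk tissue or fluid, in which fewer cells of a type and less RNA per cell cannot be told apart.

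The sequences just upstream of 4 members that differed between replicated groups are shown, since these genes carry the main differences given further on, 250 bases before the RefSeq start of each gene on GRCm38.p6, read 5′ to 3′ on the gene's strand. Capitals mark GAGGAA, the core letters of sites bound by ETS factors such as PU.1, or their reverse complement. Itgam lies on the plus strand at chr7:128062390-128062639, Nid1 on the plus strand at chr13:13437352-13437601, Itga2 on the minus strand at chr13:114932101-114932350 and Itgb7 on the minus strand at chr15:102231936-102232185.
Itgam: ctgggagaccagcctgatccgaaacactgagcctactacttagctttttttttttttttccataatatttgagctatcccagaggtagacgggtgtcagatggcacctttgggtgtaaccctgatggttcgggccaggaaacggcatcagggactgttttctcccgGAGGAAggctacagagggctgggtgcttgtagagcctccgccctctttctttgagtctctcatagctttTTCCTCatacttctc
Nid1: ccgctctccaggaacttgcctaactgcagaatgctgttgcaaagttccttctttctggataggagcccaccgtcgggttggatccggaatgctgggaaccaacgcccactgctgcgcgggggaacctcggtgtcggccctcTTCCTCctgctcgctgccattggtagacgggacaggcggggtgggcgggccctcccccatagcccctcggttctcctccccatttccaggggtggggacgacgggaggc
Itga2: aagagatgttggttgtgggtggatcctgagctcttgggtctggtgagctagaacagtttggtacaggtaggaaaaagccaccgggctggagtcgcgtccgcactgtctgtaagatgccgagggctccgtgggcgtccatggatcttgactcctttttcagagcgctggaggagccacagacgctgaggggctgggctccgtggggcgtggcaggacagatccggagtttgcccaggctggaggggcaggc
Itgb7: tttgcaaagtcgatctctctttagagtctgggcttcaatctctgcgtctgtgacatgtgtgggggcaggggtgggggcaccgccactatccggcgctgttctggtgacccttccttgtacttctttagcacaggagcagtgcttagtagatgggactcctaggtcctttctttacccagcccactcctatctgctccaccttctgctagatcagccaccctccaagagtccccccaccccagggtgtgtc
Promoters of 24 members matched the reference table, in 27 entries. On either strand, GAGGAA was found in 14 of the 27 entries and in 23.25% of 32851 promoters of the same length. TGANTCA, the letters of AP-1 sites, was found in 1 of the 27, that of Itgax, and in 6.749% of all promoters. The Itgam window held GAGGAA 2 times, the Nid1 window held it once, and the Itga2 and Itgb7 windows held neither set of letters. A match is a description of these letters and not a measured site.

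Of the members, 31 had a count in all 17 libraries. Per kilobase of exon, the highest mean levels over the 17 libraries were those of Itgb1, the beta subunit shared by most matrix-binding integrins (94.9 CPM per kb), Itgam, the alpha subunit of the complement receptor Mac-1 (77.5 CPM per kb), and Itga3, which pairs with Itgb1 to bind laminin (62.9 CPM per kb). The lowest were Itga10 (0.645 CPM per kb), Itga8 (0.504 CPM per kb) and Itgad (0.333 CPM per kb). By group mean, 11 members were highest in healthy intestine, 6 in orthotopic tumours, 5 in second taps, 5 in the cultured line, 4 in first taps, 3 in subcutaneous tumours, 3 in healthy ovary and 2 in tumours on the intestine. The cultured line had the lowest group mean for 24 members and healthy intestine for 10. The same tally over all genes was not made, so these counts have no background. The line, healthy ovary and healthy intestine are 1 library each, so their values are not means of replicates.

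**Figure D1:**
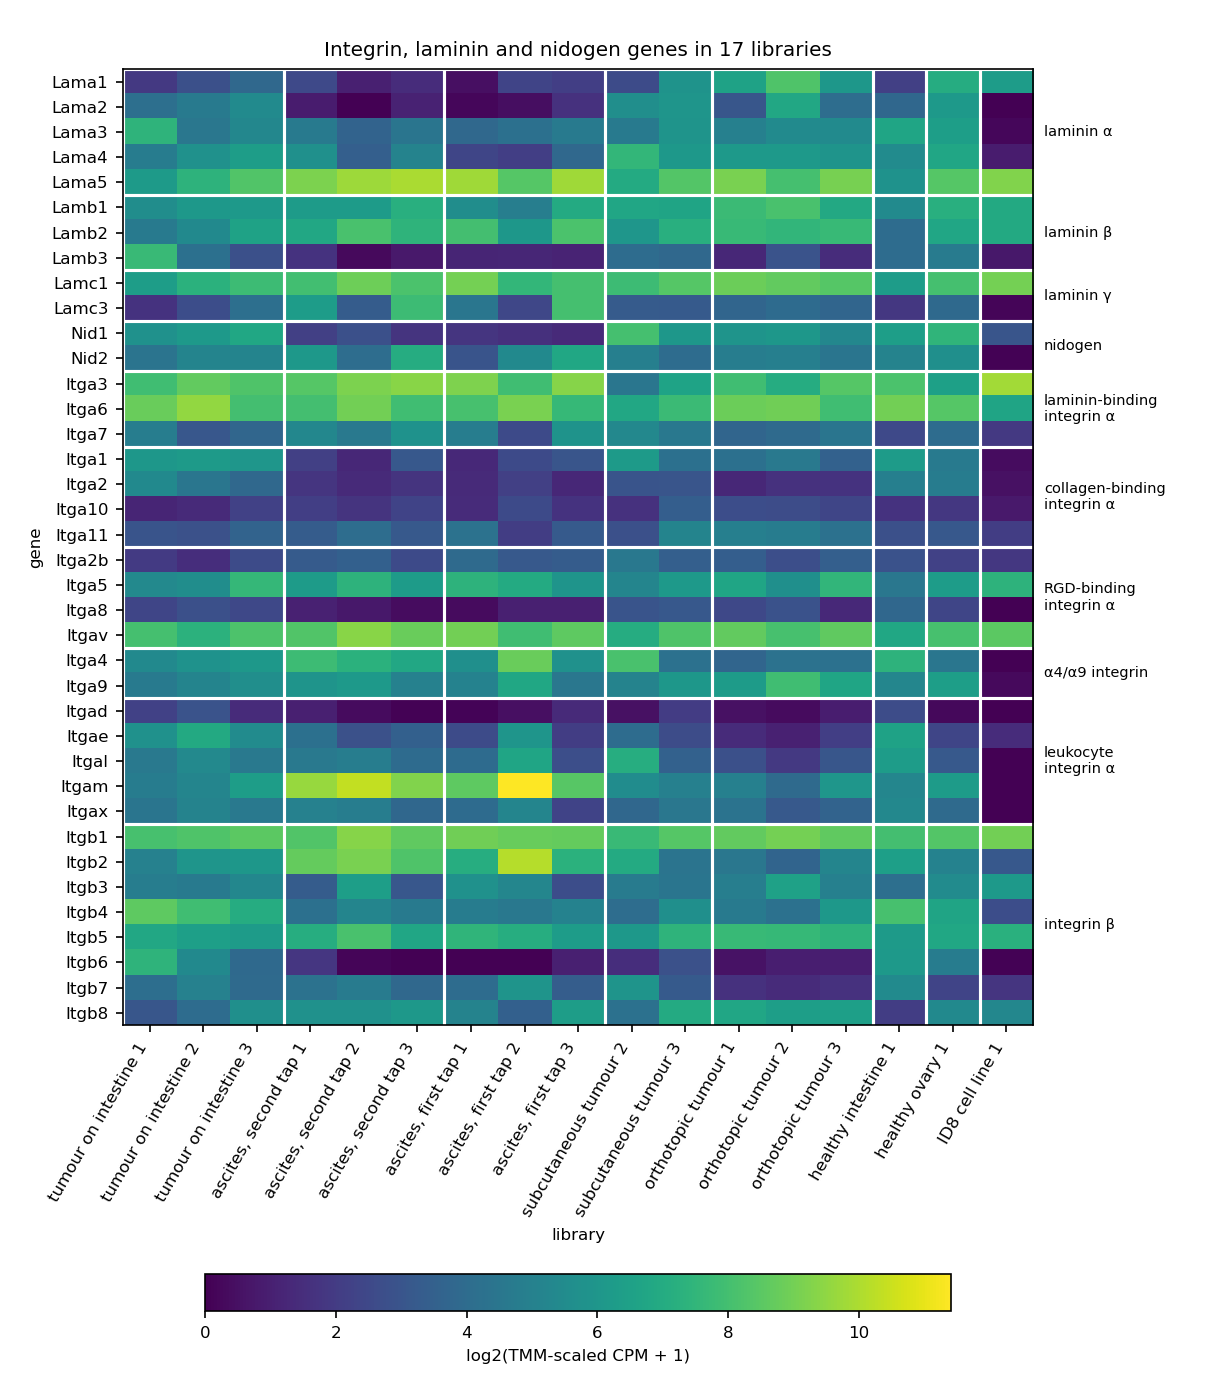
Levels of 38 of the 39 genes (vertical axis, by class) in the 17 libraries (horizontal axis, by group), as colour on a scale of log2(TMM-scaled CPM + 1). Itgb1 stayed between 215 and 644 CPM in every library, the leukocyte subunits Itgam and Itgb2 were brightest in the ascites columns, and the cultured line was at 0 for 6 genes.

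Itgb1 had 268, 311 and 368 CPM in tumours on the intestine, 317, 644 and 398 CPM in second taps, 495, 426 and 420 CPM in first taps, 215 and 340 CPM in subcutaneous tumours, 401, 518 and 391 CPM in orthotopic tumours, 251 CPM in healthy intestine, 324 CPM in healthy ovary and 497 CPM in the line. It passed in none of the 10 comparisons, with log2 fold changes of 0.03 ± 0.31 (SE) for first taps over orthotopic tumours and -0.47 ± 0.31 for tumours on the intestine over orthotopic tumours. The other widely expressed integrin subunits also passed nowhere. Itgav, whose product binds RGD ligands such as vitronectin and fibronectin, had 260, 161 and 302 CPM in tumours on the intestine, 320, 671 and 439 CPM in second taps, 497, 239 and 387 CPM in first taps, 134 and 311 CPM in subcutaneous tumours, 401, 275 and 390 CPM in orthotopic tumours, 108 CPM in healthy intestine, 270.0 CPM in healthy ovary and 375 CPM in the line. Itgb5, its partner in a vitronectin receptor, ran from 66.1 to 283 CPM over the 17 libraries, and Itga5, the classical fibronectin receptor alpha subunit, from 22.1 to 195 CPM.

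Differences were tested with edgeR's quasi-likelihood test in 1 fit over all 17 libraries, with p-values adjusted by Benjamini-Hochberg over 22671 genes and a threshold of 0.05. Log2 fold changes are the first-named group over the second. The comparisons of tumours on the intestine, the taps and subcutaneous tumours with orthotopic tumours share the 3 orthotopic libraries, and those with the line share its single library.

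In ascites of the first tap, the basement membrane genes Nid1, Lama1 and Lama4 were lower than in orthotopic tumours, and the leukocyte integrin genes Itgam, Itgb2 and Itgb7 were higher. In second taps Nid1 and Lama1 were lower and Itgam was higher. In first taps against orthotopic tumours 6 of 39 members passed (15.4%), against 1.58% of all genes tested. Of these, 3 were higher (0.688% of all genes) and 3 were lower (0.891% of all genes). The median log2 fold change was 0.03 over the members and 0.18 over all genes tested. The groups did not overlap for 13 members (33.3%), against 24.6% of all genes. In second taps 3 members passed (7.69%), against 1.09% of all genes, 1 of them higher (0.516% of all genes) and 2 lower (0.578% of all genes), and the median was -0.08 over the members and 0.13 over all genes. The groups did not overlap for 19 members (48.7%), against 31.4%.

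Nid1, which encodes nidogen-1, had 3.52, 5.89 and 2.31 CPM in second taps and 2.44, 1.97 and 1.57 CPM in first taps, against 59.3, 65.1 and 37.7 CPM in orthotopic tumours. Every tap library lay below every orthotopic library. Nid1 fell by 4.76 on the log2 scale in first taps (SE 0.58, adjusted p = 0.0090) and fell by 3.79 in second taps (SE 0.55, adjusted p = 0.0202), relative to orthotopic tumours. In first taps the call held in all 14 alternative settings. In second taps it was lost without orthotopic tumour 1 or 2 or without any one of the second taps, with an adjusted p of up to 0.0959. Tumours on the intestine had 54.4, 68.2 and 111 CPM of Nid1, and the gene was higher there than in first taps by a log2 fold change of 5.29 ± 0.60 (adjusted p = 0.000457), again in all 14 settings. The remaining levels were 261 and 64.9 CPM in subcutaneous tumours, 84.1 CPM in healthy intestine, 176 CPM in healthy ovary and 6.97 CPM in the line.

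Nid2, which encodes the second nidogen, passed in neither tap. It had 67.1, 16.1 and 131 CPM in second taps and 6.74, 41.0 and 112 CPM in first taps, against 27.1, 29.2 and 20.3 CPM in orthotopic tumours. The groups overlapped, and the log2 fold changes of 1.48 ± 0.83 in second taps and 1.05 ± 0.82 in first taps did not pass (adjusted p = 0.399 and 0.520). Per exon length, Nid2 made up 78.6% to 98.7% of the summed nidogen level in second taps and 78.8% to 98.96% in first taps, against 37.6% to 42.0% in orthotopic tumours. In tumours on the intestine it made up 29.4% to 40.2%, and in the line 1.01%. Exons of Nid2 overlap those of Rtraf on the opposite strand over 8.45% of their length, and whether strand was used in counting is not given in the sources used here.

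**Figure D2:**
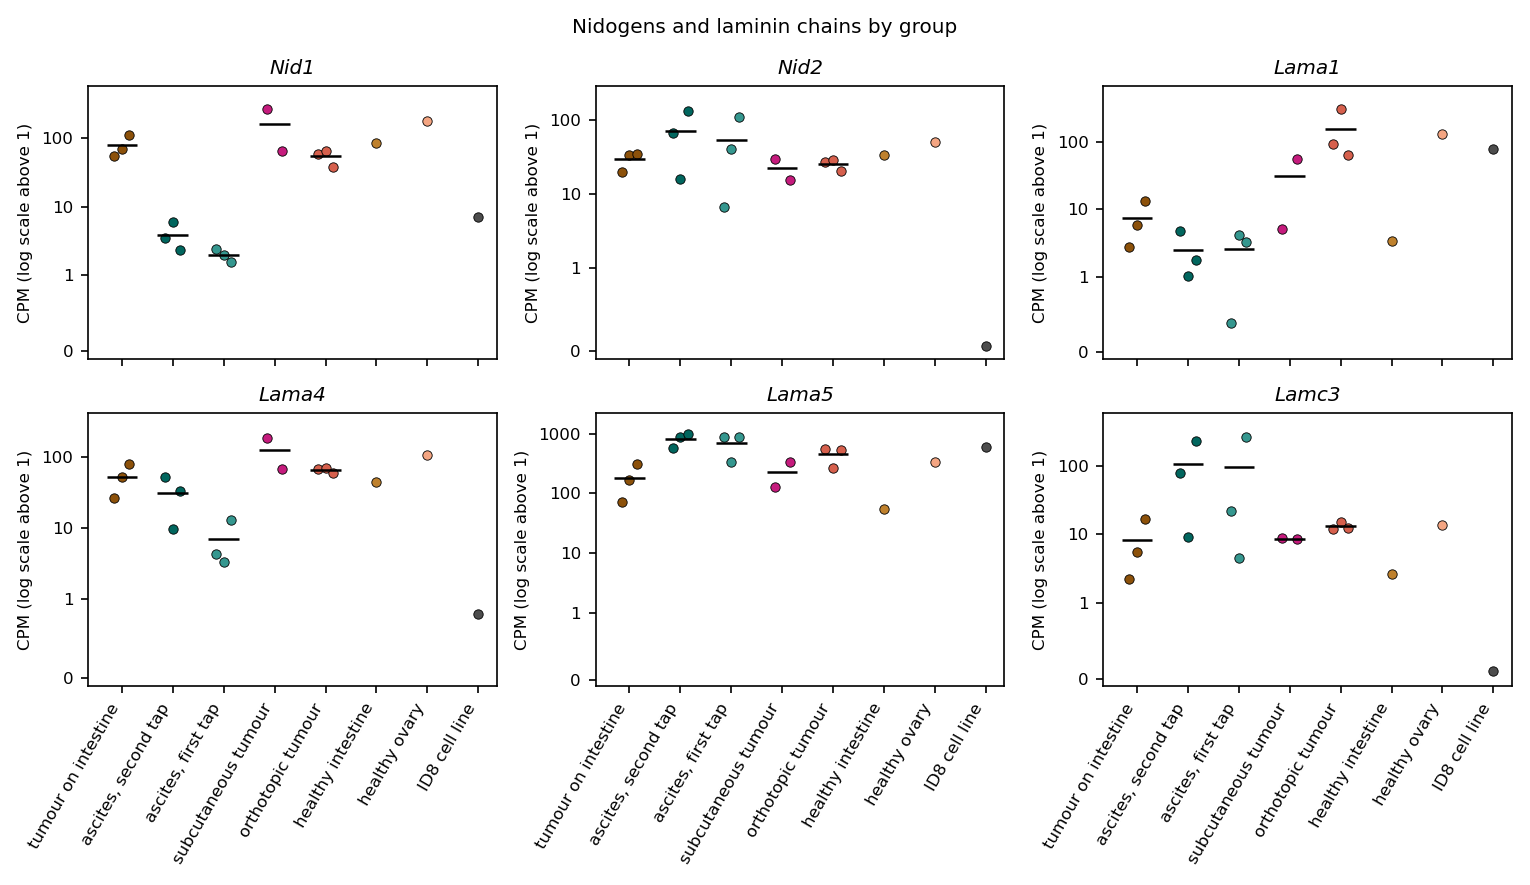
Levels of 2 nidogens and 4 laminin chains in CPM (vertical axis, logarithmic above 1 CPM) by group (horizontal axis), with 1 point per library and a bar at the mean of groups with more than 1 library. The 6 tap libraries of Nid1 sit between 1.57 and 5.89 CPM, below the orthotopic tumours at 37.7 to 65.1 CPM, while Lamc3 and Nid2 spread widely among the taps.

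Laminin alpha chains divided in the same comparison. Lama1, the alpha chain of laminin-111, had 4.80, 1.03 and 1.76 CPM in second taps and 0.383, 4.12 and 3.29 CPM in first taps, against 94.0, 308 and 65.0 CPM in orthotopic tumours. The groups did not overlap, and Lama1 fell by 5.94 on the log2 scale in second taps (SE 1.23, adjusted p = 0.0466) and fell by 5.91 in first taps (SE 1.23, adjusted p = 0.0397). Lama4, the alpha chain of laminin-411 in vessel walls, had 52.6, 9.84 and 33.0 CPM in second taps and 4.30, 3.402 and 13.3 CPM in first taps, against 68.5, 69.8 and 59.6 CPM in orthotopic tumours. It fell by 3.24 in first taps (SE 0.72, adjusted p = 0.0477) and did not pass in second taps, where the log2 fold change was -1.05 ± 0.66. The Lama1 calls were lost without any one of the libraries compared, in either tap, and the Lama4 call without any orthotopic library or without first tap 1 or 2. The Lama1 log2 fold change was -5.05 in first taps and -5.15 in second taps without orthotopic tumour 2, -6.52 without first tap 2 and -6.91 without second tap 1. That of Lama4 was -4.18 without first tap 3.

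Lama5, the alpha chain of laminin-511 and the most abundant of the class, did not pass. Its levels were 572, 866 and 993 CPM in second taps and 889, 336 and 867 CPM in first taps. Orthotopic tumours had 551, 265 and 535 CPM, below every second tap but overlapping the first taps. The log2 fold changes were 0.85 ± 0.57 in second taps and 0.63 ± 0.57 in first taps. Per exon length, Lama5 made up 87.4% to 97.5% of the laminin alpha level in second taps and 92.6% to 97.9% in first taps, against 32.4% to 73.9% in orthotopic tumours and 86.4% in the line. Lama2, the alpha chain of muscle laminin, had 0.829, 0 and 1.102 CPM in second taps and 0.164, 0.340 and 2.07 CPM in first taps, against 7.32, 115 and 15.9 CPM in orthotopic tumours. The groups did not overlap, but the log2 fold changes of -6.17 ± 1.46 and -5.76 ± 1.44 missed the threshold (adjusted p = 0.0683 and 0.0669). Skeletal muscle markers summed to 563 CPM in orthotopic tumour 2, against 0.737 and 2.05 CPM in the other orthotopic tumours, and their part in the high Lama2 and Lama1 values of that library was not tested.

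**Figure D3:**
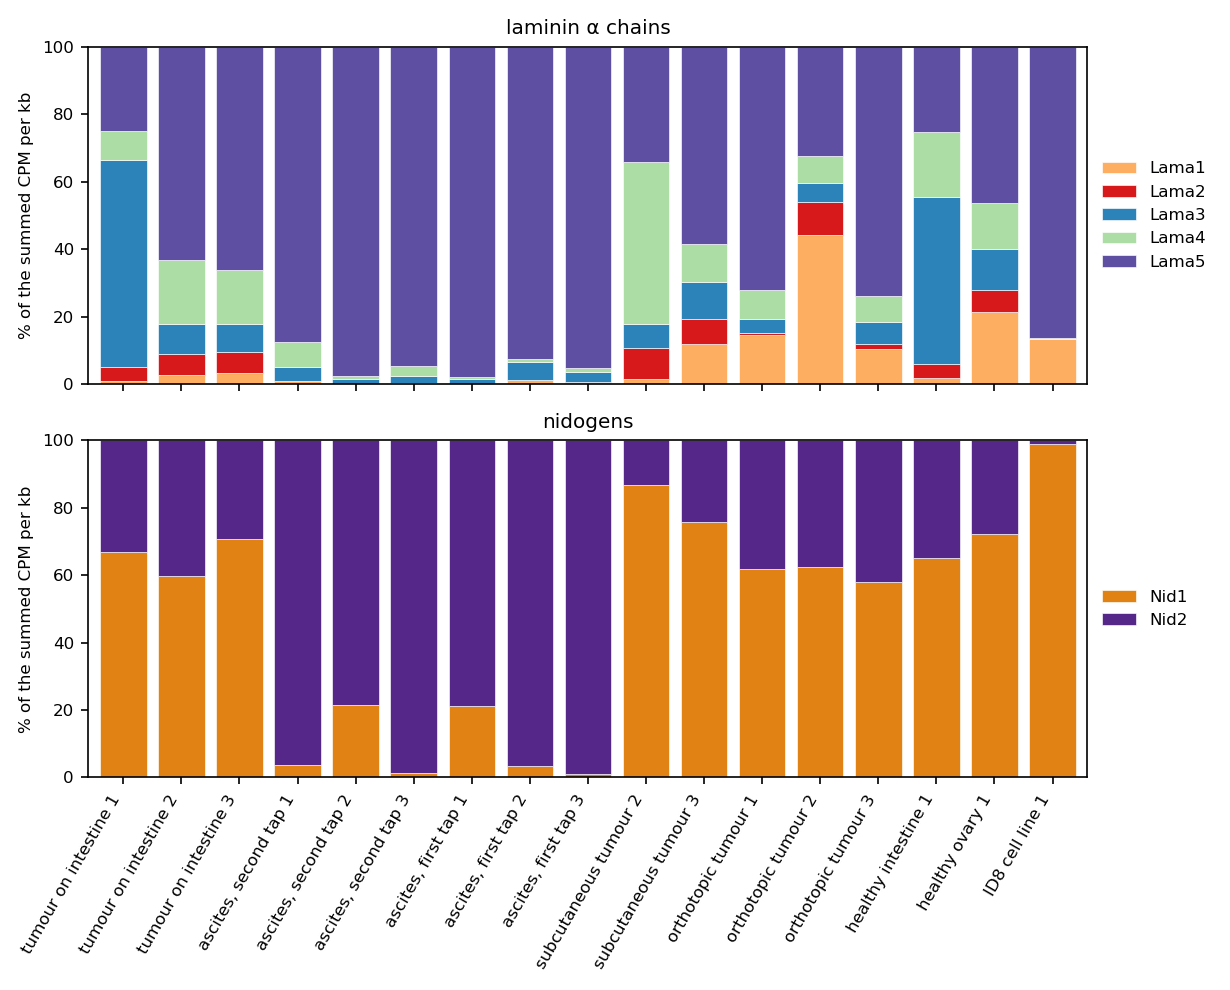
Share of each laminin alpha chain (upper panel) and each nidogen (lower panel) in the summed CPM per kb of its class (vertical axis, percent) in each library (horizontal axis). Lama5 fills 87.4% to 97.9% of the bars of the 6 tap libraries, and Nid2 replaces Nid1 as the larger share there.

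Fibroblast, endothelial, and pericyte and smooth muscle markers were also lower in the taps than in orthotopic tumours. The 8 fibroblast markers summed to 498 to 827 CPM in second taps and 177 to 962 CPM in first taps, against 1995 to 4339 CPM in orthotopic tumours. The 9 endothelial markers summed to 56.2 to 75.3 CPM in second taps and 39.8 to 93.0 CPM in first taps, against 322 to 549 CPM in orthotopic tumours. Pericyte and smooth muscle markers summed to 34.7 to 51.9 CPM in second taps and 24.3 to 55.5 CPM in first taps, against 193 to 309 CPM in orthotopic tumours. Tie1 and Emcn had no count in first tap 1, second tap 2 or second tap 3. In the line Lama1 had 79.3 CPM, and fibroblast, endothelial, and pericyte and smooth muscle markers summed to 1114, 2.46 and 34.9 CPM. Healthy ovary had 132 CPM of Lama1, with 3153, 393 and 1142 CPM of these markers. Tumours on the intestine had 2.73 to 13.3 CPM of Lama1, with 588 to 2434, 165 to 236 and 1464 to 2347 CPM of them. The part of these cell types in the lower Nid1, Lama1 and Lama4 levels was not tested.

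The beta and gamma chains gave no call in the ascites comparisons. Lamb1, the beta chain of laminin-111 and laminin-411, had 74.7, 75.1 and 147 CPM in second taps and 47.1, 28.7 and 124 CPM in first taps, against 219, 284 and 116 CPM in orthotopic tumours, which overlapped. Lamb2, the beta chain of laminin-521 and the most abundant beta chain, had 113, 281 and 169 CPM in second taps and 253, 65.0 and 285 CPM in first taps, against 203, 179 and 205 CPM in orthotopic tumours. Lamc1, the gamma chain of most laminins, had 244, 479 and 290 CPM in second taps and 526, 185 and 259 CPM in first taps, against 455, 411 and 338 CPM in orthotopic tumours. Neither differed beyond the spread.

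Lamc3, a gamma chain of restricted expression, spread widely within the ascites. It had 77.7, 9.04 and 227 CPM in second taps and 21.5, 4.46 and 264 CPM in first taps, against 12.02, 15.0 and 12.1 CPM in orthotopic tumours. First tap 3 and second taps 1 and 3 were high and the other 3 taps were low, so the log2 fold changes of 3.00 ± 1.33 and 2.89 ± 1.32 did not pass (adjusted p = 0.288 and 0.262). The same 3 libraries held the most Nid2 of the 17. Mesothelial and ovarian surface markers summed to 6228 CPM in first tap 3 and 3762 CPM in second tap 3, but to 1810 CPM in second tap 1, close to the 1886 and 2005 CPM of first tap 1 and second tap 2. Their part in the Lamc3 levels was not tested. Exons of Lamc3 overlap those of the antisense gene Gm13441 over 6.27% of their length.

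Of the leukocyte integrin alpha subunits, 1 of 5 passed in each tap against orthotopic tumours, Itgam. Itgam had 805, 1331 and 607 CPM in second taps and 376, 2717 and 348 CPM in first taps, against 30.4, 14.6 and 62.7 CPM in orthotopic tumours. All 6 tap libraries were above all orthotopic libraries, and first tap 2 was the highest. The log2 fold change was 4.67 ± 0.91 in second taps (adjusted p = 0.0436) and 5.00 ± 0.92 in first taps (adjusted p = 0.0312). Itgb2, the beta subunit that Itgam, Itgal, Itgax and Itgad share, had 423, 547 and 309 CPM in second taps and 136, 1113 and 156 CPM in first taps, against 22.0, 11.8 and 35.9 CPM in orthotopic tumours. It rose in first taps (log2 fold change 4.33 ± 0.93, adjusted p = 0.0427) and missed the threshold in second taps (4.20 ± 0.93, adjusted p = 0.0543), although the groups were apart in both.

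Itgb7, the beta subunit of the gut homing receptors of lymphocytes, had 18.6, 26.0 and 13.3 CPM in second taps and 15.2, 58.8 and 9.45 CPM in first taps, against 2.102, 1.63 and 2.05 CPM in orthotopic tumours. It rose in first taps (log2 fold change 3.85 ± 0.81, adjusted p = 0.0403), and the value in second taps was 3.32 ± 0.79 (adjusted p = 0.0683). Itga4, the alpha subunit of VLA-4 that also pairs with Itgb7, had 224, 156 and 115 CPM in second taps and 50.8, 442 and 54.0 CPM in first taps, against 12.04, 18.4 and 18.0 CPM in orthotopic tumours. The groups were apart, but the log2 fold changes of 3.36 ± 0.97 and 3.50 ± 0.98 missed the threshold (adjusted p = 0.120 and 0.0898). Exons of Itga4 overlap those of Cerkl on the opposite strand over 8.04% of their length.

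Itgal, the alpha subunit of LFA-1 on lymphocytes, had 23.2, 27.3 and 14.9 CPM in second taps and 14.7, 104 and 5.62 CPM in first taps, against 5.92, 2.73 and 7.21 CPM in orthotopic tumours. Itgax, the alpha subunit known as CD11c, had 31.6, 27.5 and 13.0 CPM in second taps and 14.8, 35.1 and 3.90 CPM in first taps, against 19.4, 8.24 and 11.5 CPM in orthotopic tumours. Itgad was at or under 1.53 CPM in all 6 taps and at or under 0.895 CPM in the orthotopic tumours. None of these 3 passed in either tap.

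The 11 macrophage markers summed to 5027 to 8574 CPM in second taps and 1923 to 14050 CPM in first taps, against 427 to 618 CPM in orthotopic tumours, and all 11 had a count in each of these libraries. The highest sum, in first tap 2, was in the library with the most Itgam and Itgb2. Neutrophil markers summed to 56.99 to 239 CPM in second taps and 30.3 to 501 CPM in first taps, against 4.25 to 6.63 CPM in orthotopic tumours. T cell markers summed to 4.92 to 8.94 CPM in second taps and 15.4 to 31.3 CPM in first taps, against 5.24 to 13.2 CPM in orthotopic tumours. For B cell markers these sums were 15.2 to 51.7, 17.1 to 48.4 and 8.74 to 15.4 CPM in that order. The part of these cell types in the leukocyte integrin levels was not tested. Without first tap 2, or without any one of the orthotopic libraries, Nid1 alone of the 6 members passed in first taps against orthotopic tumours, and the Itgam call in second taps was lost without any one of the libraries compared. Without first tap 2 the log2 fold changes in first taps were 3.22 for Itgam, 2.53 for Itgb2 and 2.56 for Itgb7 (adjusted p = 0.0780, 0.143 and 0.133).

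Between second and first taps no member passed, nor did any gene (0% of all genes tested). By edgeR's unadjusted p, 1 member and 145 genes were under 0.05, and DESeq2 called 0 members and 1 gene. No member's groups were apart, against 2.92% of all genes.

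In tumours on the intestine, Itga2, Itgb4, Itgb6, Lamb3, Itgae and Itgb7 were higher than in orthotopic tumours, and the laminin chains Lama1 and Lamb1 were lower. There 8 of 39 members passed (20.5%), against 15.5% of all genes tested, a share near the background. Of these, 6 were higher (10.4% of all genes) and 2 were lower (5.13% of all genes), and the median log2 fold change was 0.21 over the members and 0.06 over all genes tested. The groups did not overlap for 21 members (53.8%), against 44.8% of all genes.

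Itga2, which pairs with Itgb1 as a collagen receptor of epithelia and platelets, had 41.7, 21.2 and 13.4 CPM in tumours on the intestine, against 1.40, 2.06 and 2.18 CPM in orthotopic tumours. The lowest intestinal value was above every orthotopic value, and the log2 fold change was 3.75 ± 0.52 (adjusted p = 0.00105). First taps had 1.56, 3.48 and 1.42 CPM, against which Itga2 was also higher in tumours on the intestine (3.56 ± 0.51, adjusted p = 0.00145). Both calls held in all 14 alternative settings, and without tumour on the intestine 1 the log2 fold change over orthotopic tumours was 3.14. Healthy intestine had 29.2 CPM and healthy ovary 27.1 CPM of Itga2.

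Itgb4, which pairs with Itga6 in hemidesmosomes, had 384, 242 and 134 CPM in tumours on the intestine, against 25.2, 18.3 and 67.0 CPM in orthotopic tumours, with no overlap (log2 fold change 2.78 ± 0.60, adjusted p = 0.0107). Against the 26.6, 23.1 and 32.5 CPM of first taps the log2 fold change was 3.21 ± 0.61 (adjusted p = 0.00632). Its partner Itga6 passed in neither comparison. Itga6 had 443, 760 and 257 CPM in tumours on the intestine, against 460, 489 and 243 CPM in orthotopic tumours and 267, 547 and 197 CPM in first taps, with log2 fold changes of 0.29 ± 0.52 and 0.53 ± 0.52 that lay within the spread. Exons of Itgb4 overlap those of B230344G16Rik on the opposite strand over 7.66% of their length.

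Itgb6, the epithelial partner of Itgav in a receptor that activates TGF-beta, had 169, 41.1 and 14.0 CPM in tumours on the intestine, against 0.467, 0.931 and 0.947 CPM in orthotopic tumours. Its log2 fold change was 6.57 ± 1.85 (adjusted p = 0.0328). In first taps Itgb6 had no count in 2 libraries and 1.03 CPM in first tap 3. That library had a count in 32846 genes, against 23363 and 23714 genes in first taps 1 and 2. Itgb6 was higher in tumours on the intestine than in first taps (7.79 ± 1.97, adjusted p = 0.0259). Tumour on the intestine 1 held the highest level in both comparisons, and without it the log2 fold changes were 5.06 over orthotopic tumours and 6.35 over first taps. Without first tap 1 or 2 the comparison with first taps gave 7.09 and 7.16, and without first tap 3 no count remained in first taps.

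Of the epithelial laminin chains, Lamb3 passed and Lama3 did not. Lamb3 had 214, 17.6 and 5.98 CPM in tumours on the intestine, against 1.40, 6.45 and 1.76 CPM in orthotopic tumours, so the groups overlapped at their edge, and it passed with a log2 fold change of 4.63 ± 1.24 (adjusted p = 0.0278). Lama3 had 169, 21.6 and 37.3 CPM, against 30.2, 43.2 and 42.8 CPM in orthotopic tumours, and did not pass (0.97 ± 0.65). Tumour on the intestine 1 was highest for both chains. Without it the Lamb3 log2 fold change was 1.80 and the call was lost (adjusted p = 0.213).

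Transcripts of both chains of the alphaE beta7 integrin, which holds intraepithelial lymphocytes to E-cadherin, were higher in tumours on the intestine than in orthotopic tumours. Itgae had 53.0, 120 and 44.9 CPM in tumours on the intestine, against 1.61, 1.06 and 3.34 CPM in orthotopic tumours (log2 fold change 5.17 ± 1.12, adjusted p = 0.0112). Itgb7 had 16.6, 31.4 and 14.3 CPM, against 2.102, 1.63 and 2.05 CPM in orthotopic tumours (3.43 ± 0.79, adjusted p = 0.0153). Neither gene's groups overlapped. Itgae had 17.5, 6.18 and 10.1 CPM in second taps, above every orthotopic tumour, and 5.04, 61.0 and 3.21 CPM in first taps. It did not pass in either tap against orthotopic tumours. First tap 2 lay within the Itgae range of tumours on the intestine, and Itgb7 passed in first taps, as given above. Among the other integrin ligands, Cdh1, the E-cadherin gene, was also higher (7.01 ± 0.84, adjusted p = 0.000627).

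Lama1 had 2.73, 5.90 and 13.3 CPM in tumours on the intestine, below the 65.0 to 308 CPM of orthotopic tumours, and fell by 4.40 on the log2 scale (SE 1.14, adjusted p = 0.0242). Lamb1 had 47.5, 67.8 and 69.4 CPM, against 219, 284 and 116 CPM in orthotopic tumours, and fell by 1.74 (SE 0.52, adjusted p = 0.0404). Lamb2 (-1.88 ± 0.61), Lamc1 (-1.38 ± 0.46) and Itga9 (-1.98 ± 0.64) did not pass.

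**Figure D4:**
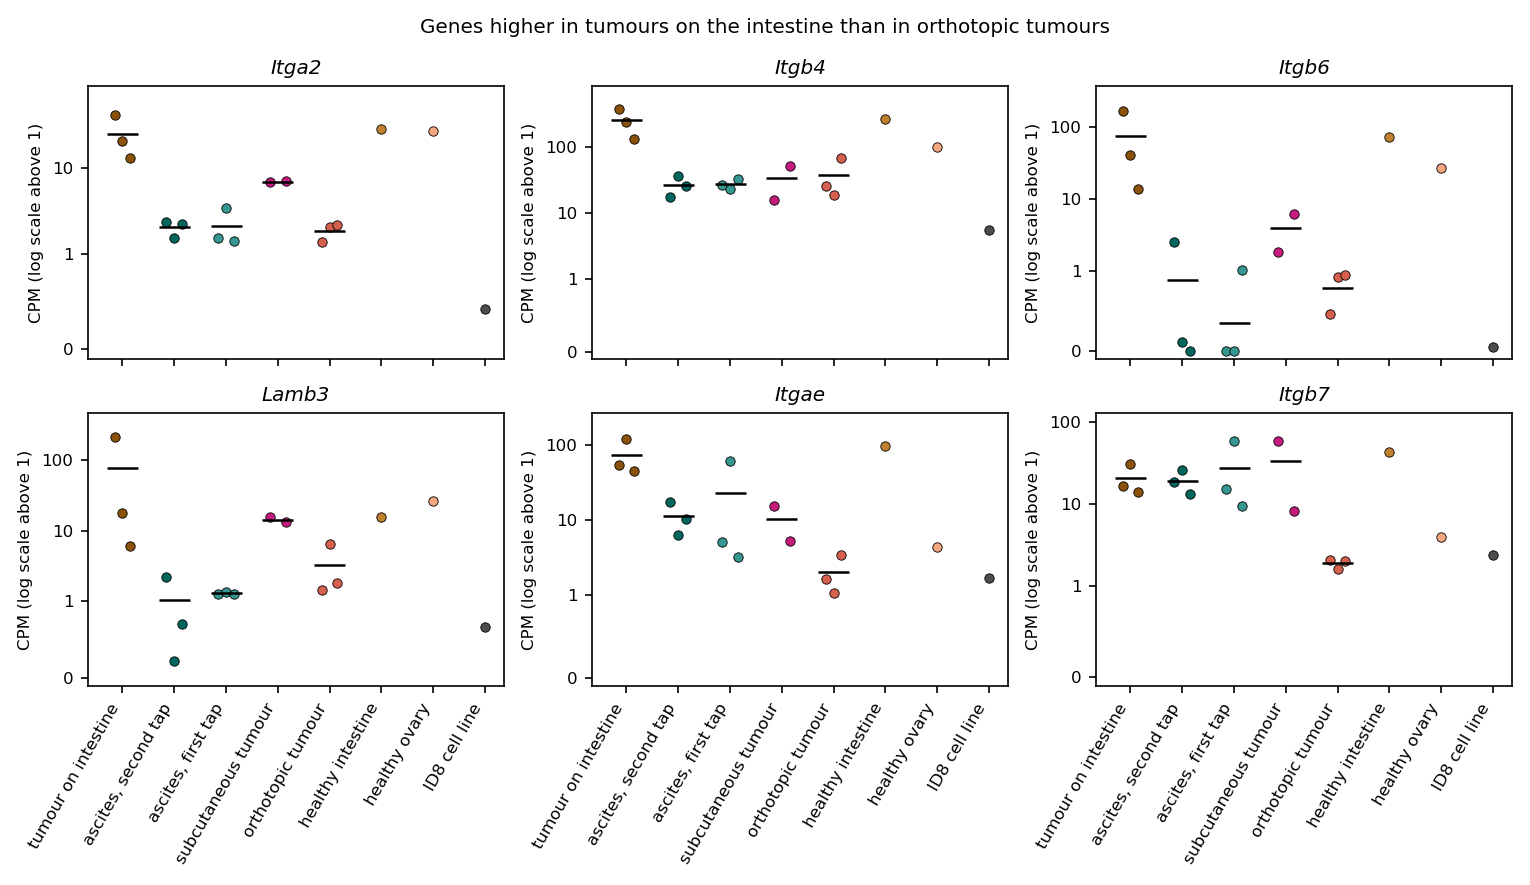
Levels in CPM (vertical axis, logarithmic above 1 CPM) by group (horizontal axis) of the 6 genes that were higher in tumours on the intestine than in orthotopic tumours, with 1 point per library and a bar at the mean of groups with more than 1 library. Itga2 sits at 13.4 to 41.7 CPM in tumours on the intestine and at 1.40 to 2.18 CPM in orthotopic tumours, and healthy intestine lies within the range of tumours on the intestine for each gene but Itgb7, for which it is above.

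The intestinal epithelial markers moved with these genes, as did T cell markers, which summed to 96.7 to 371 CPM in tumours on the intestine, against 5.24 to 13.2 CPM in orthotopic tumours. All 8 intestinal epithelial markers had a count in each tumour on the intestine, and 1 to 3 of them were at 0 in each orthotopic tumour. In tumours on the intestine against the 1 library of healthy intestine, no member and no gene passed (0% of all genes tested), and the intestine's value lay outside the range of the tumours for 22 members (56.4%), against 42.9% of all genes. By edgeR's unadjusted p, 0 members and 584 genes were under 0.05, and DESeq2 called 0 members and 43 genes. The values in healthy intestine were 268 CPM for Itgb4, 72.1 CPM for Itgb6, 15.4 CPM for Lamb3, 95.3 CPM for Itgae and 43.2 CPM for Itgb7. For the members lower than in orthotopic tumours, healthy intestine had 3.44 CPM of Lama1 and 43.0 CPM of Lamb1. The part of host intestine in the tumour libraries was not tested. Without orthotopic tumour 1 or 2 the Itgae and Itgb4 calls were lost. The log2 fold change of Itgae was 4.54 without tumour on the intestine 2, and that of Itgb4 was 3.46 without orthotopic tumour 3. That of Lamb3 was 5.55 without orthotopic tumour 2, and that of Lama1 was -3.47 without orthotopic tumour 2 and -5.25 without tumour on the intestine 3. The Itgb7, Itgb6 and Lamb3 calls were lost without any one of the orthotopic tumours, the Lamb1 call without orthotopic tumour 1 or 2 or any one tumour on the intestine, and the Lama1 call without orthotopic tumour 2 or tumour on the intestine 1 or 2. The Itgb7 call was also lost without tumour on the intestine 2, and the Itgb6 call without tumour on the intestine 1 or 2.

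Tumours on the intestine were also set against first taps, the other site of spread. There 12 of 39 passed (30.8%), against 11.1% of all genes tested, of which 9 were higher (7.93% of all genes) and 3 were lower (3.15% of all genes). The median log2 fold change was -0.30 over the members and -0.19 over all genes. The groups did not overlap for 15 members (38.5%), against 27.6%. Beside Nid1, Itga2, Itgb4, Itgb6 and Lamb3, the higher members were Itga1, Itga8, Lama2 and Lama4.

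Itga1, a collagen receptor subunit of smooth muscle and stroma, had 63.9, 72.5 and 62.2 CPM in tumours on the intestine, against 1.51, 4.88 and 6.96 CPM in first taps, with a log2 fold change of 3.90 ± 0.76 (adjusted p = 0.0073) that held in all 14 settings. Lama4 had 26.4, 53.6 and 80.5 CPM in tumours on the intestine, against 4.30, 3.402 and 13.3 CPM in first taps (2.93 ± 0.71, adjusted p = 0.0210). Lama2 had 16.8, 24.0 and 43.2 CPM, against 0.164, 0.340 and 2.07 CPM (5.04 ± 1.39, adjusted p = 0.0370). In none of the 3 did the groups overlap. Lamb3 had 214, 17.6 and 5.98 CPM, against 1.26, 1.32 and 1.22 CPM in first taps (5.96 ± 1.33, adjusted p = 0.0146). Itga8, an alpha subunit of mesenchymal cells that binds nephronectin, had 4.20, 5.94 and 4.56 CPM, against 0.274, 0.983 and 0.994 CPM (2.71 ± 0.68, adjusted p = 0.0236).

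Pericyte and smooth muscle markers summed to 1464 to 2347 CPM in tumours on the intestine and 24.3 to 55.5 CPM in first taps. Healthy intestine had 75.5 CPM of Itga1, 13.0 CPM of Itga8, 12.9 CPM of Lama2 and 44.9 CPM of Lama4. The part of these cell types or of host intestine in the higher Itga1, Itga8, Lama2 and Lama4 levels was not tested. The lower members were Itgam with 27.1, 35.5 and 80.9 CPM in tumours on the intestine, Itgb2 with 31.0, 61.7 and 65.6 CPM, and Itga2b, the platelet fibrinogen receptor subunit, with 2.83, 1.78 and 5.09 CPM, against 14.5, 8.16 and 8.91 CPM of Itga2b in first taps. Itgam fell by 4.58 (SE 0.91, adjusted p = 0.00808), Itgb2 fell by 3.15 (SE 0.88, adjusted p = 0.0393) and Itga2b fell by 1.70 (SE 0.50, adjusted p = 0.0492). Itgb3, the partner of Itga2b, did not pass, with 27.4, 24.9 and 37.8 CPM, against 52.8, 36.2 and 5.55 CPM in first taps. In orthotopic tumours Itga2b had 9.53, 5.58 and 10.1 CPM and Itgb3 had 28.5, 91.3 and 30.6 CPM. The calls of Nid1, Itga1, Itga2, Itgb4 and Itgam held in all 14 settings. Without first tap 1 or without tumour on the intestine 1, 6 members passed, and without tumour on the intestine 2, 7 members passed. Calls over all genes in those runs are not given here, so these counts have no background. The Itgb2 call was lost without first tap 2 or any one tumour on the intestine, the Lama2 call without first tap 1 or 2 or any one tumour on the intestine, and the Lama4 call without first tap 1 or 2 or tumour on the intestine 2. Without first tap 2 the log2 fold changes were -2.91 for Itgam and -1.46 for Itgb2, and without first tap 3 they were 3.77 for Lama4 and 6.76 for Lama2. That of Lamb3 was 3.22 without tumour on the intestine 1. The Itga8 call was lost without first tap 1 or tumour on the intestine 1 or 2, and the Lamb3 call without first tap 1 or tumour on the intestine 1. The Itgb6 call was lost without first tap 1 or 2 or tumour on the intestine 1 or 2, and the Itga2b call without any one first tap or tumour on the intestine 1 or 2.

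**Figure D5:**
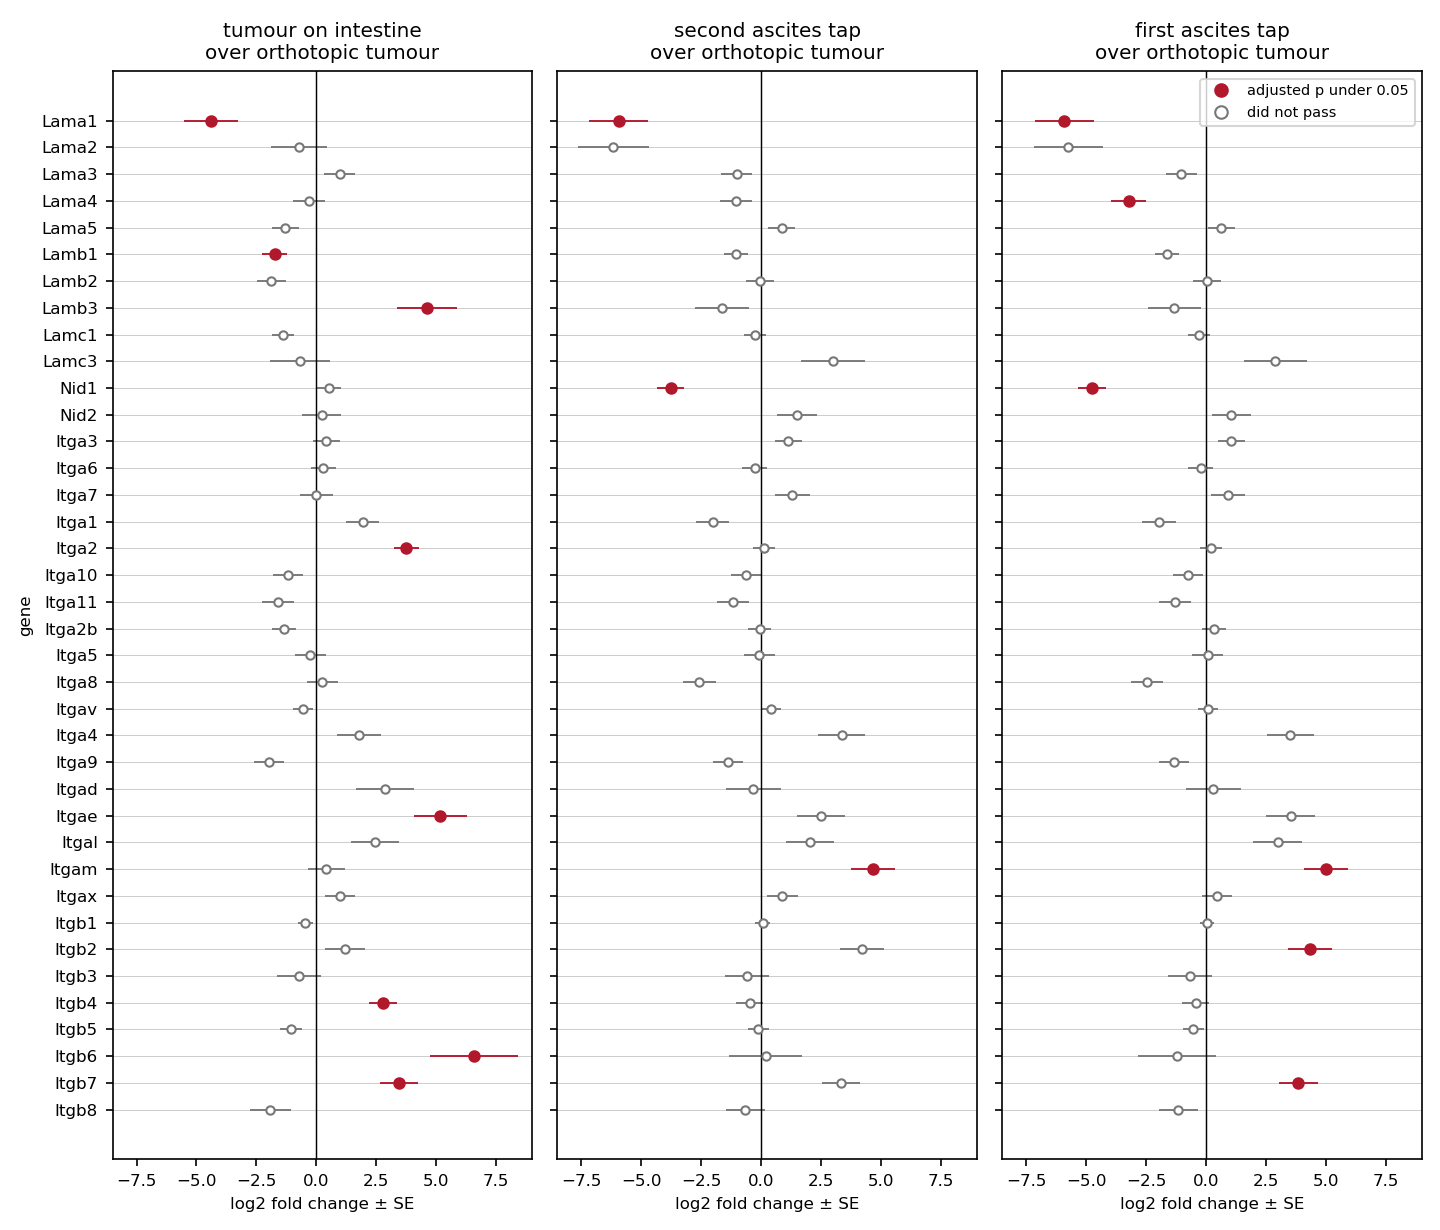
Log2 fold changes with their SE (horizontal axis) of 38 of the 39 genes (vertical axis, by class) for tumours on the intestine, second taps and first taps, each over orthotopic tumours, which all 3 comparisons share. Filled red points passed the threshold, and Nid1, at -3.79 and -4.76 in the taps, has a value of 0.53 in tumours on the intestine.

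In subcutaneous against orthotopic tumours no member passed, against 0.0132% of all genes tested. By edgeR's unadjusted p, 7 members and 4690 genes were under 0.05, and DESeq2 called 6 members and 2300 genes. The median log2 fold change was 0.10 over the members and 0.25 over all genes, and the groups did not overlap for 19 members (48.7%), against 41.1%. Itgb7 had 58.7 and 8.39 CPM in subcutaneous tumours, above the 1.63 to 2.102 CPM of orthotopic tumours, with a log2 fold change of 4.12 ± 0.85 (adjusted p = 0.0548). Itga2 had 6.90 and 7.12 CPM, above the 1.40 to 2.18 CPM of orthotopic tumours (1.90 ± 0.52, adjusted p = 0.0933). Itga3 had 20.97 and 95.8 CPM, below the 241, 135 and 339 CPM of orthotopic tumours (-2.03 ± 0.67, adjusted p = 0.139). Itgal had 137 and 10.8 CPM and Itga4 had 283 and 18.1 CPM in the subcutaneous tumours. T cell markers summed to 291 and 27.1 CPM there, and their part in these levels was not tested. Leaving out either subcutaneous tumour leaves 1 library in that group, so counts from those runs are not given.

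Against the cultured line, Itgam, Itgax, Itga8, Itga9, Lama3 and Nid2 were higher both in orthotopic tumours and in first taps. In orthotopic tumours 8 of 39 members were higher (20.5%), against 2.37% of all genes tested, and 0 were lower, against 0.834% (3.2% of all genes passed in either direction). In first taps 8 were higher (20.5%), against 3.11%, and 0 were lower, against 1.11% (4.22% in either direction). The median log2 fold change over the members was 2.26 in orthotopic tumours and 2.33 in first taps, against 0.24 and 0.55 over all genes. By edgeR's unadjusted p, 21 members were under 0.05 in each comparison, against 4733 genes in orthotopic tumours and 4677 genes in first taps. The line's value lay outside the range of the other group for 32 members in orthotopic tumours (82.1%), against 69.6% of all genes, and for 30 in first taps (76.9%), against 56.1%. The line is 1 library, taken to vary like the other groups, so these comparisons have no replicate check.

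The line had no count of Itga4, Itga8, Itgad, Itgal, Itgam or Itgax. With 3 counts as the floor for that library (0.0795 CPM, counting error only, without molecular identifiers), Itgam was at least 452-fold higher in orthotopic tumours and at least 14430-fold higher in first taps, and Itgax at least 164-fold and 226-fold higher. Itga8 was at least 51.8-fold higher in orthotopic tumours and 9.44-fold higher in first taps. These 3 passed in both comparisons, as did Itga9, Lama3 and Nid2. Itga4, at least 2294-fold higher, and Itgal, at least 523-fold higher, passed in first taps. First tap 2 was the highest first tap for Itgam, Itgax, Itga4 and Itgal, and without it the bounds were 4550-fold, 118-fold, 660-fold and 128-fold in that order. Without orthotopic tumour 3 the Itgam bound in orthotopic tumours was 283-fold. In first taps the Itga8 call was lost without first tap 2 or 3, the Itga8 and Itgal calls with the library name prefix as a term, and the Itga4, Itgal and Nid2 calls without a filter on low counts.

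Itga9, which binds tenascin and osteopontin, had 32.2, 111 and 21.8 CPM in first taps and 76.4, 242 and 104 CPM in orthotopic tumours, against 0.212 CPM in the line. Its log2 fold change was 7.99 ± 1.45 in first taps (adjusted p = 0.0162) and 9.35 ± 1.54 in orthotopic tumours (adjusted p = 0.0137). Lama3 had 13.6, 17.6 and 25.1 CPM in first taps and 30.2, 43.2 and 42.8 CPM in orthotopic tumours, against 0.159 CPM in the line (6.84 ± 1.45 and 7.89 ± 1.51, adjusted p = 0.0250 and 0.0211). Nid2 had 6.74 to 112 CPM in first taps and 20.3 to 29.2 CPM in orthotopic tumours, against 0.0530 CPM in the line (9.86 ± 2.14 and 8.80 ± 2.07, adjusted p = 0.0278 and 0.0417). Lama4 was higher in orthotopic tumours, at 59.6 to 69.8 CPM, than in the line, at 0.821 CPM (6.32 ± 1.40, adjusted p = 0.0342). Itga1 was higher in orthotopic tumours, at 10.6 to 23.6 CPM, than in the line, at 0.291 CPM (5.87 ± 1.42, adjusted p = 0.0452). Without first tap 2 the log2 fold change of Itga9 in first taps was 6.92, without orthotopic tumour 2 it was 8.70 in orthotopic tumours, and without first tap 3 that of Nid2 in first taps was 8.74. Without any one of the orthotopic tumours the Lama4, Nid2 and Itga1 calls were lost, which left 5 members. Calls over all genes without an orthotopic tumour are not given here.

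Macrophage markers summed to 15.5 CPM in the line, with Adgre1, C1qa, C1qb, C1qc, Mrc1 and Lyz2 at 0, and fibroblast markers to 1114 CPM with Lum at 0. Endothelial markers summed to 2.46 CPM there, with Cdh5, Kdr, Tie1, Emcn and Cldn5 at 0. The part of host cells in the higher levels was not tested. Itgb2 had 7.79 CPM in the line although no count of Itgal, Itgam, Itgax or Itgad was found, and Itgae, the remaining leukocyte alpha subunit, had 1.70 CPM.

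The highest members in the cultured line by CPM were Itga3, Lama5, Lamc1 and Itgb1. Itga3 had 236, 407 and 306 CPM in tumours on the intestine, 335, 570 and 656 CPM in second taps, 591, 240 and 636 CPM in first taps and 241, 135 and 339 CPM in orthotopic tumours, against 914 CPM in the line, its highest level of any library. It did not pass in orthotopic tumours (log2 fold change -1.94 ± 0.72, adjusted p = 0.152). Per exon length, Itga3 made up 29.7% to 66.8% of the laminin-binding alpha subunits in orthotopic tumours and 93.4% in the line, where Itga6 made up 6.42%. Lama5 (599 CPM), Lamc1 (515 CPM), Lamb2 (123 CPM) and Lamb1 (119 CPM) were also present in the line, and in orthotopic tumours none of them passed. Lama1 had 0.383 to 4.12 CPM in first taps and 79.3 CPM in the line, with a log2 fold change of -4.94 ± 1.31 that missed the threshold (adjusted p = 0.0558).

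In orthotopic tumours against the 1 library of healthy ovary, 1 member was lower, against 0.591% of all genes tested, and none was higher, against 0.00882% (0.6% in either direction). That member was Itga2, with 1.40, 2.06 and 2.18 CPM in orthotopic tumours and 27.1 CPM in healthy ovary (fell by 3.84, SE 0.60, adjusted p = 0.0178). The call was lost without any one of the orthotopic tumours. By edgeR's unadjusted p, 5 members and 2541 genes were under 0.05. The ovary's value lay outside the range of orthotopic tumours for 26 members (66.7%), against 66.7% of all genes.

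Itga7, Itgb8, Itga10 and Itga11 passed in no comparison. Itga7, a laminin receptor subunit of muscle, ran from 2.73 CPM in the line to 57.03 CPM in first tap 3, and Itgb8, which with Itgav activates TGF-beta, from 3.18 CPM in healthy intestine to 123 CPM in subcutaneous tumour 3. The collagen receptor subunits Itga10 and Itga11 ran from 0.715 and 3.15 CPM to 9.52 and 34.1 CPM, with both highest in subcutaneous tumour 3. Exons of Itga10 overlap those of Gm42957 on the same strand over 33.5% of their length in GENCODE M21. Gm42957 is not among the genes of the deposited count table, so how the reads of Itga10 were assigned is uncertain.

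Genes that work with the members were taken from 4 lists. Of 28 integrin adaptors, 0 passed in either tap against orthotopic tumours, with 5 in second taps and 6 in first taps under an unadjusted edgeR p of 0.05 and 4 in each called by DESeq2. Fermt1, the epithelial kindlin that activates integrins, was higher in tumours on the intestine than in orthotopic tumours (log2 fold change 5.43 ± 1.06, adjusted p = 0.00654) and than in first taps (6.43 ± 1.12, adjusted p = 0.00407). Parvb, which links integrins to actin, was lower in tumours on the intestine than in first taps (-2.83 ± 0.58, adjusted p = 0.0100). Fermt1 was the 1 adaptor of 28 higher in each comparison, against 10.4% and 7.93% of all genes. Parvb was the 1 lower, against 3.15%. Against the line 3 of 28 adaptors were higher in orthotopic tumours (Parvb, Parvg and Lims2), against 2.37% of all genes. In first taps 4 were higher (these and Apbb1ip), against 3.11%.

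Of 18 other basement membrane genes, 2 were lower in first taps than in orthotopic tumours, against 0.891% of all genes. The median log2 fold change was -0.99 over the list and 0.18 over all genes. The lower genes were Fbln1, a basement membrane glycoprotein (-4.61 ± 0.94), and Col15a1, a collagen at the outer side of basement membranes (-3.58 ± 0.76). In second taps 1 was lower, Fbln1 (-5.18 ± 0.97), against 0.578% of all genes. In tumours on the intestine against orthotopic tumours 3 were lower, against 5.13% of all genes. They were Col18a1, the source of endostatin (-3.11 ± 0.82), Smoc1 (-4.81 ± 1.33) and Col4a4, a type IV collagen chain (-3.13 ± 0.71). The list's median was -1.52, against 0.06 over all genes. Against first taps 1 was higher (Fbln1, 5.62 ± 0.99), against 7.93% of all genes. There 2 were lower (Bcam, -2.84 ± 0.83, and Col4a6, -2.65 ± 0.77), against 3.15%. Against the line Col18a1 and Fbln1 were higher in orthotopic tumours, against 2.37% of all genes.

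Of 18 other integrin ligands, 3 were lower in first taps than in orthotopic tumours, against 0.891% of all genes. They were Fbn1, encoding fibrillin-1 (-4.68 ± 0.80), Postn, encoding periostin (-5.34 ± 0.87), and Tnc, encoding tenascin-C (-3.27 ± 0.65). In second taps Fbn1 and Postn were lower, against 0.578% of all genes. In tumours on the intestine against orthotopic tumours, Cdh1 and Madcam1, the vascular ligand of alpha4 beta7 (4.24 ± 1.23), were higher. These are 2 of 18, against 10.4% of all genes, a share near the background. Against first taps 5 ligands were higher, against 7.93% of all genes, and 1, Cyr61, was lower, against 3.15%. Postn and Tnc were also higher in orthotopic tumours than in the line, against 2.37% of all genes. Cdh1 was lower in orthotopic tumours than in healthy ovary (-5.64 ± 0.86), against 0.591% of all genes. None of the 4 hemidesmosome partners passed by edgeR in any comparison. DESeq2 called 1 of them in tumours on the intestine against first taps, 1 in orthotopic tumours against the line and 1 in orthotopic tumours against healthy ovary, and at most 2 had an unadjusted edgeR p under 0.05 in any comparison.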

How the data were processed

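For 17 labelled libraries the authors deposited raw counts, which are whole numbers for each Ensembl identifier. The submitters' processing notes name HISAT, HISAT2, featureCounts and DESeq2, without versions, and both hg19 and mm39. The annotation and strand setting used in counting are not given in the sources used here. In the table, 1 column matched no labelled sample and was not used. Counts were scaled by TMM and tested with edgeR 4.0.16 (limma 3.58.1, R 4.3.3) by the robust quasi-likelihood test on 22671 genes with over 0.5 CPM in at least 2 libraries, with 9 residual degrees of freedom. The 4 comparisons with a single library take it to vary like the other groups. Adjusted p-values are Benjamini-Hochberg values over all genes tested, and a call is an adjusted p under 0.05. Procedures were tested on simulated data. Values per kilobase used exon lengths of GENCODE M21, in which 42462 of 43629 identifiers were found. Promoters came from RefSeq on GRCm38.p6. Comparisons were repeated with median-of-ratios factors, with library size alone, without the filter, with DESeq2 1.42.0 and on the groups compared alone. They were also repeated with the library name prefix or the replicate number as a term and without each replicate. A further run, chosen after seeing the data, left out the subcutaneous libraries. The prefix term was not run for subcutaneous against orthotopic tumours. Runs on the groups alone or with the replicate number covered only comparisons between replicated groups.

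The rule for the members uses symbols alone, but this gene family and the gene lists were chosen with earlier results of these data known. Values by library are given for members that passed between replicated groups, for the most abundant member of each class and for known complexes. The values of 1 member are not reported here, though it stays in all counts. That rule also named members detected in every library. As 31 were, those not otherwise named are given by their range. Of the partner lists, up to 4 genes per comparison with the smallest p are named. Protein features were not analysed here. Exons of Itgam overlap those of Gm49368 on the same strand over 68.7% of their length in GENCODE M21. Gm49368 is not among the genes of the deposited count table. The annotation used in counting is not given, so how the reads of Itgam were assigned is uncertain.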

Additional observations from a re-analysis of the deposited data

How the results depend on the processing

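The number of members called depended on the setting, while no called fold change of a member turned its sign in any alternative run. Without a filter on low counts, 3 members passed in first taps, 1 in second taps and 5 in tumours on the intestine, each against orthotopic tumours, and 5 in first taps against the line. With library size alone, 1 passed in first taps and 1 in second taps against orthotopic tumours, and 5 in orthotopic tumours against the line. DESeq2 called 6 members in subcutaneous tumours, 13 in first taps, 9 in second taps and 15 in tumours on the intestine against orthotopic tumours, 19 in orthotopic tumours and 20 in first taps against the line, and 2 in orthotopic tumours against healthy ovary. Over all genes it called 2300, 2590, 2021, 5983, 3806, 3746 and 780 in these comparisons, in the same order. With the groups compared alone, 1 passed in first taps, 9 in second taps and 16 in tumours on the intestine, and with the subcutaneous libraries left out, chosen after seeing the data, 5 passed in second taps, each against orthotopic tumours. The causes were not tested. Except for the scalings and DESeq2, calls over all genes under these alternatives are not given here. Those member counts therefore have no background beside them.

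Leaving out any one orthotopic tumour gave 0 members in subcutaneous against orthotopic tumours. Leaving out a subcutaneous tumour leaves 1 library in that group, so those counts are not given. Against orthotopic tumours, leaving out each replicate in turn gave 1 to 8 members in first taps and 0 to 1 in second taps. In tumours on the intestine it gave 1 to 11. It gave 6 to 12 in tumours on the intestine against first taps, 5 in orthotopic tumours and 7 to 9 in first taps against the line, and 0 in orthotopic tumours against healthy ovary. Between second and first taps and between tumours on the intestine and healthy intestine, no setting called a member. Calls over all genes with each replicate left out are likewise not given here.

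Of the 26 same-numbered pairs, 6 had a correlation of deviations over 0.1, with a range of -0.557 to 0.441, so the numbers were not taken as pairs. Between the taps, the highest correlations were 0.673 (first tap 1, second tap 2), 0.441 (first tap 3, second tap 3) and 0.415 (first tap 2, second tap 1). Which taps came from the same animal is not given, so the taps were compared unpaired. The replicate block goes by number and joins only first tap 3 and second tap 3 of these. Pairing of the taps in this order was not tested. With the replicate block, 1 member passed in first taps, 1 in second taps and 8 in tumours on the intestine against orthotopic tumours, 10 in tumours on the intestine against first taps, and 0 in subcutaneous tumours and between taps.

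With library size alone the median log2 fold change of all genes was -0.23 in tumours on the intestine over orthotopic tumours, against 0.06 with TMM, and -0.44 over first taps, against -0.19. It was 0.38 in orthotopic tumours over the line, against 0.24, and 0.19 in tumours on the intestine over healthy intestine, against 0.02. Calls over all genes were then 1687 higher and 1401 lower in tumours on the intestine over orthotopic tumours (2354 and 1163 with TMM), 19 and 64 in first taps (156 and 202), 2 and 15 in second taps (117 and 131, and 56 and 104 with median-of-ratios factors), and against the line 399 and 61 in orthotopic tumours (537 and 189) and 589 and 97 in first taps (706 and 251).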
